A study of Arabidopsis thaliana with 4 samples.

Results

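The s215 line was compared with the atprmt5 mutant over 18381 of the 24288 Arabidopsis thaliana loci with a deposited value, those whose s215 and atprmt5 values averaged at least 1 RPKM. RPKM are reads scaled to the length of the transcript and the total of the library. Whole seedlings (Columbia) were harvested at 12 days, after growth on Murashige and Skoog medium with 3% sucrose at 23 °C in a daily cycle of 16 h light and 8 h dark. Wild type, atprmt5 and the lines m90 and s215 gave 1 strand-specific RNA library each, so all differences below are between single libraries and none could be tested. The labels name neither the gene altered in s215 or m90 nor say whether these lines carry the atprmt5 mutation, and they do not say how many plants went into a library.

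AtPRMT5 (PRMT5) is an enzyme that adds symmetric dimethyl groups to arginines, and Sm proteins at the core of the spliceosome are among its substrates. The title of the series names the Prp19-associated complex (NTC), which joins the spliceosome when it is activated. The series design concerns suppressors of atprmt5, second mutations that lessen a mutant's defects. The comparison asks which transcripts separate s215 from atprmt5, and whether the genes that set atprmt5 apart from wild type lie back towards wild type in s215.

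The s215 seedlings had far more RNA of salicylic acid defence, receptor-like kinase and leaf senescence genes than the atprmt5 seedlings. They had far less RNA of root, flavonoid, cell division and photosynthesis genes. At least 2-fold on the log2(RPKM + 1) scale, 2442 loci (13.3%) were higher in s215 and 4127 (22.5%) were lower, together 35.7% of those tested, and 11812 lay within 2-fold. Between atprmt5 and wild type, 1.83% of 18560 loci were higher and 3.42% lower, together 5.25%. The median log2 ratio of s215 to atprmt5 was -0.09 and its SD across loci was 1.37. A difference of at least 16-fold was found for 152 loci in the higher direction and 164 in the lower.

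Scaling totals of the libraries, worked back from the smallest values, lay between 17350568 and 17901257 reads. At 0 stood 2893 loci in s215 and between 1736 and 1884 in the other 3 libraries. Loci counted as higher made up 6.87% of all summed RPKM in atprmt5 and 30.4% in s215. Those counted as lower made up 41.4% and 12.4%. Of the tested loci, 274 were at 0 in s215 and 60 at 0 in atprmt5. A locus at or below 0.333 RPKM in 1 library that still passed the minimum did so on the other library alone and had to be called. Of the calls, 232 higher and 885 lower were of this kind and are named fixed by the minimum below; over the other 17264 loci, 12.8% were higher and 18.8% lower. At the edge of the minimum, AT3G48480 (1.62 RPKM in atprmt5, 0.382 in s215) was kept and AT4G22960 (1.35 and 0.649) was left out. At the edge of 2-fold, AT2G34730 (17.7 and 36.5 RPKM) counted as higher and SCL30 (102 and 205) did not, while AT3G20490 (7.67 and 3.33) counted as lower and RAD52-2 (9.38 and 4.19) did not.

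**Figure D1:**
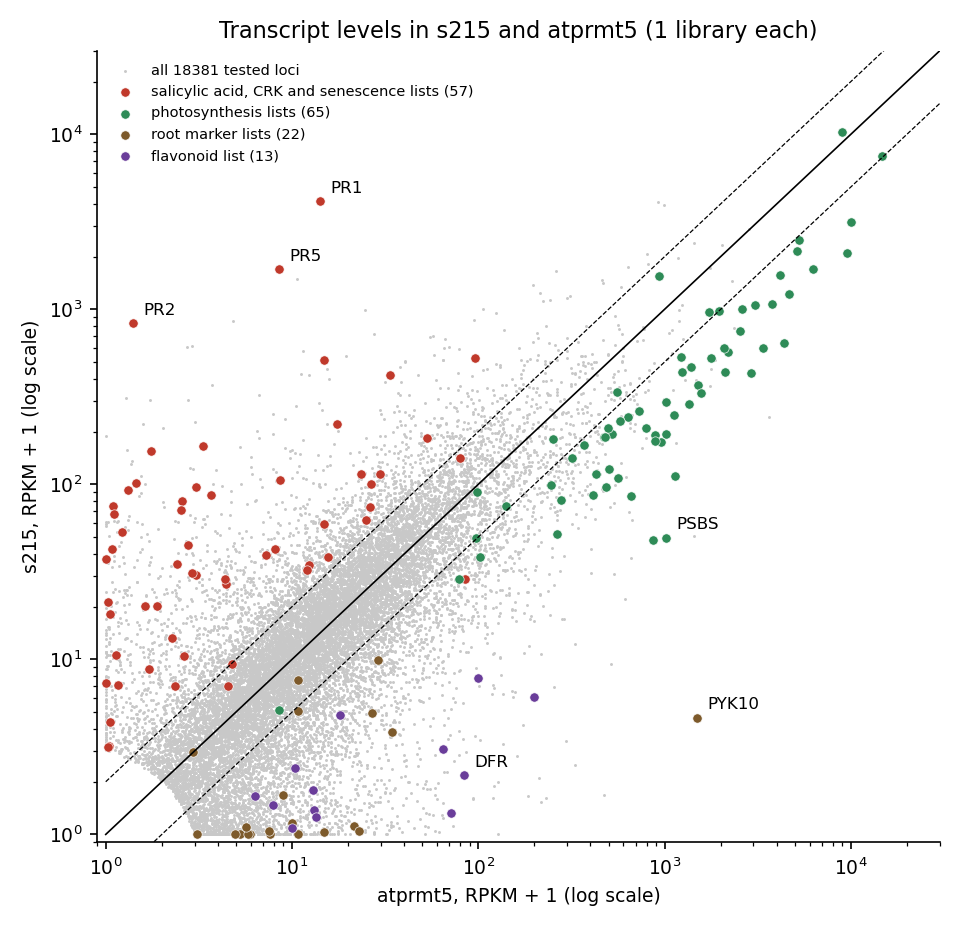
Level of each tested locus in s215 (vertical) against atprmt5 (horizontal), as RPKM + 1 on log axes, with equality as a solid line and 2-fold differences as dashed lines. Coloured points are listed genes: PR1 stands at 4144 RPKM in s215 against 13.1 in atprmt5, and PYK10 at 3.65 against 1484.

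PRMT5 RNA (gene AT4G31120 at 15132011 to 15136696 on chromosome 4, minus strand) was at 1.7 RPKM in s215, 1.25 in atprmt5, 0.974 in m90 and 5.94 in wild type. It was thus low in s215 as in atprmt5, with an RPKM ratio of 1.37 between them. Parentheses after such ratios hold the 95% counting interval, here 0.927 to 2.0, which covers counting error only and not variation between plants. Of the 9 arginine methyltransferase genes, PRMT1A, an enzyme of the asymmetric type, was the 1 member past 2-fold. Its levels were 5.92 RPKM in wild type, 6.98 in atprmt5, 12.3 in m90 but 1.23 in s215.

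The summed RNA of listed root markers was far lower in s215 than in atprmt5. Its part in the differences of genes with root expression below was not tested. Of 31 listed root markers, 15 were at 0 in s215. Of the 22 tested, 14 were fixed as lower by the minimum; of the other 8, 6 were lower and 0 higher. Of the same 31, 0 stood at 0 in wild type and atprmt5 and 1 in m90. Markers at 0 in s215 included the Casparian strip genes CASP1 and CASP2, their regulator MYB36, the root hair genes RHD6, RSL4 and COBL9, and the root tip genes PLT1, PLT2 and WOX5. PLT1, PLT2 and WOX5 were under the minimum, so they were low in atprmt5 as well. The summed level of the 31 was 1804 RPKM in wild type, 1728 in atprmt5, 1544 in m90 but 33.3 in s215. Without PYK10, which supplied most of it, the sums were 252, 244, 176 and 29.6. SCR (9.80 RPKM in atprmt5, 6.60 in s215) and the nitrate transporter gene NRT2.1 (1.93 and 1.96) were the tested markers within 2-fold, and SCR is known from leaves as well. In whole seedlings, fewer root cells and less of these RNAs per root cell cannot be told apart.

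CASP1, a scaffold protein of the Casparian strip, was at 15.4 RPKM in wild type, 9.72 in atprmt5, 12.4 in m90 but 0 in s215. PER64, a peroxidase that helps to lignify the strip, was at 8.57, 4.87, 4.88 and 0. EXPA18, a root hair expansin, was at 9.53, 20.6, 11.1 and 0.115. All 3 were present in wild type, atprmt5 and m90 and at or near 0 in s215 alone. Their lower calls were fixed by the minimum, so the calls themselves show nothing. In the root tip and metabolism list 4 of the 5 tested members were fixed as lower by the minimum, so their count shows nothing. They include the thalianol genes THAS (21.8 RPKM in atprmt5, 0.0457 in s215) and THAH (13.9 and 0.0284). The marneral synthase gene MRN1 (4.8 and 0) ended the longest run of neighbouring loci at 0 in s215, 3 loci on chromosome 5 between 17023502 and 17058245. In atprmt5 the longest such run held 2 loci.

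Salicylic acid defence genes were the highest of the 39 lists. Salicylic acid is the hormone of resistance to pathogens that feed on living cells: ICS1 makes its precursor, EDS1 and PAD4 signal upstream of it, NPR1 reads it, and the PR genes are its classical outputs. All 17 tested members were higher in s215 and 0 were lower (median log2 ratio 4.01), and 2 of these calls were fixed by the minimum. ALD1, of pipecolic acid synthesis, was under the minimum, at 0 RPKM in atprmt5 and 1.92 in s215.

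PR1 (AT2G14610, chromosome 2, 6241640 to 6242541, minus strand), a secreted defence protein, was at 1.21 RPKM in wild type, 13.1 in atprmt5, 2.44 in m90 but 4144 in s215. That is 317-fold above atprmt5 (277 to 365), and it made PR1 the third most abundant transcript of the s215 library. PR2, a glucanase that cuts fungal walls, was at 0.554, 0.403, 0.810 and 830.4 RPKM, 2063-fold above atprmt5 (1115 to 3999). PR5, a thaumatin-like protein, was at 2.59, 7.47, 11.5 and 1699 RPKM, 228-fold above (194 to 270.2). For all 3 the s215 level was far above the other libraries, which stayed at or below 13.1 RPKM.

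Earlier steps of the pathway were higher too, by smaller factors. ICS1 was at 7.14 RPKM in atprmt5 and 41.9 in s215, EDS1 at 28.5 and 113, PAD4 at 7.6 and 105, and NPR1 at 25.3 and 73.0. The transcription factor genes SARD1 and CBP60G, which switch on ICS1, were at 1.56 and 79.2 RPKM and at 2.67 and 85.6. These 6 were chosen for their roles after their values were seen. PAD3, the last enzyme of camalexin synthesis, was at 1.46 RPKM in wild type, 2.05 in atprmt5, 2.23 in m90 but 95.2 in s215, 46.5-fold above atprmt5 (36.5 to 60.5).

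Of the 18 cysteine-rich receptor-like kinases (CRKs), membrane kinases with an extracellular cysteine motif, 11 were fixed as higher by the minimum, since they were at or below 0.333 RPKM in atprmt5. Of the other 7, 6 were higher and 0 lower. CRK4 was at 0.787 RPKM in wild type, 0.743 in atprmt5, 0.161 in m90 but 154 in s215. CRK6 was at 0.0259, 0.1, 0.101 and 73.9, and CRK45 at 0.552, 0.311, 0.750 and 91.4. These kinases were thus barely detected outside s215. CRK11 (3.76 and 8.43 RPKM in atprmt5 and s215) was the 1 member short of 2-fold. Many CRKs are tandem copies of alike sequence, and how the authors counted reads with several matches is not given in the sources used here, so values of single members are uncertain.

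**Figure D2:**
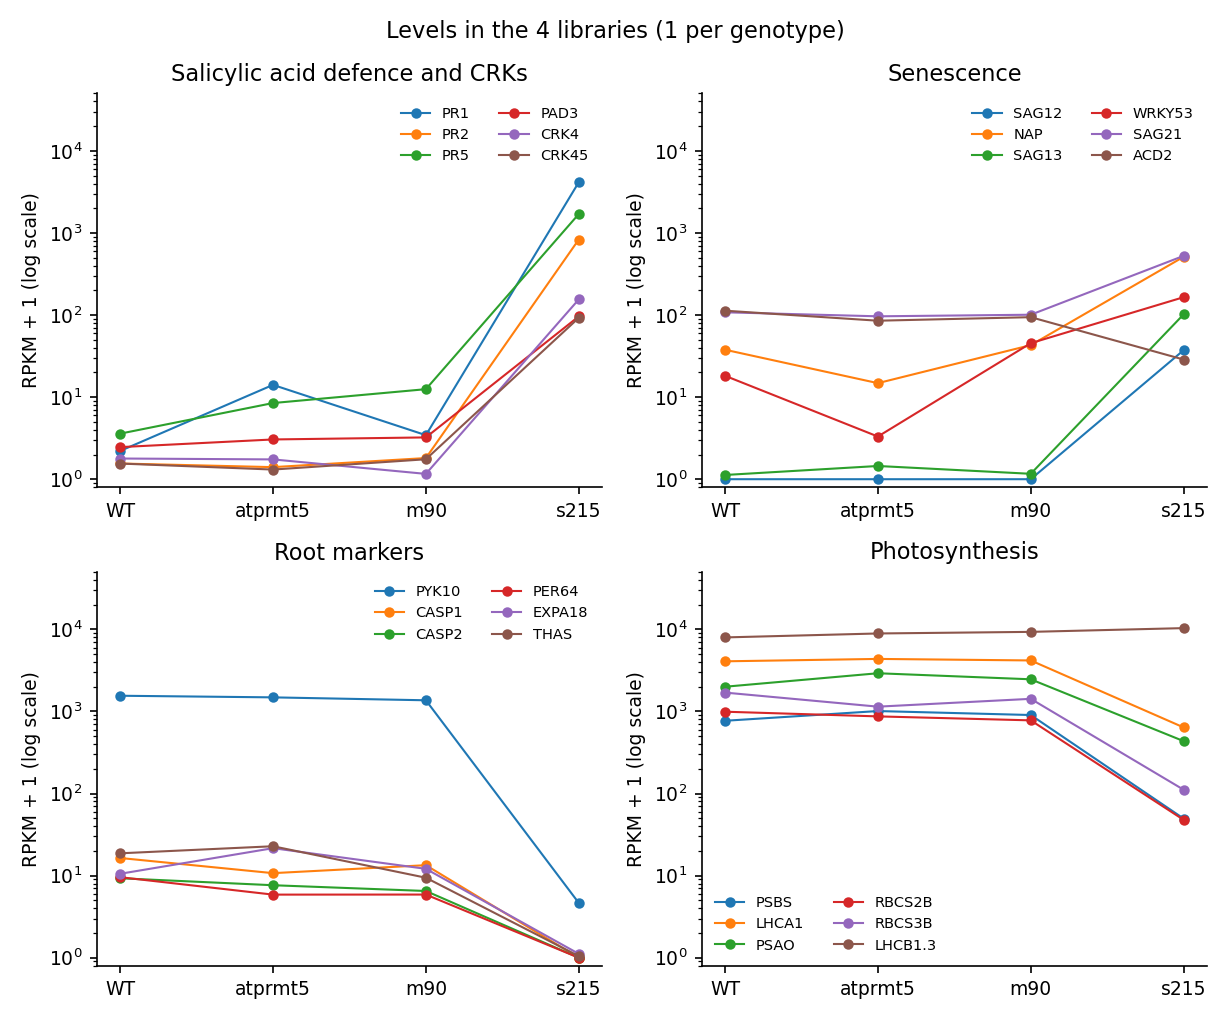
Levels of 6 genes in each of 4 groups, as RPKM + 1 on log axes, in the 4 libraries (1 point per library; lines join the points of 1 gene and imply no order). Defence and senescence genes other than ACD2 were highest in s215, root markers were at or near 0 there except PYK10 at 3.65 RPKM, and the photosynthesis genes other than LHCB1.3 were lowest there.

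The remaining genes with the 15 highest ratios had mostly defence or unassigned annotations. PCR1 was at 0.292 RPKM in atprmt5 and 309 in s215, AIG1, a gene induced by avirulent bacteria, at 1.74 and 611, and LURP1, a gene of resistance to downy mildew, at 3.84 and 852. HR4, a homologue of the mildew resistance gene RPW8, was at 11.9 RPKM in wild type, 9.59 in atprmt5, 17.7 in m90 but 1493 in s215. BG3, another glucanase gene close to PR2 on chromosome 3, was at 0.590 and 221 RPKM in atprmt5 and s215. AT2G04460 was at 0 in atprmt5 and 189 RPKM in s215, at least 1645-fold higher against a floor of 3 reads. The others were AT3G28510 (1.91 and 613), the aspartyl protease locus AT5G10760 (0.728 and 303), AT1G13470 (0.307 and 156), the calcium-binding locus AT3G47480 (1.77 and 303), AT3G61280 (1.02 and 208) and the leucine-rich repeat kinase locus AT1G35710 (2.73 and 369). Each of the 15 was lower than 20 RPKM in wild type, atprmt5 and m90.

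WRKY factors are defence and senescence regulators that bind the W-box, here searched as TTGACC or TTGACT on either strand in the 250 bases upstream of each annotated gene start. These windows were read from the RefSeq TAIR10.1 genome. A W-box was present in 28.3% of 18302 tested loci with a window, in 35.1% of 2433 loci higher in s215, and in 42.8% of the 152 at least 16-fold higher. It was in 4 of the 15 highest (26.7%), so the share did not increase at every step. The share was 24.8% in the 4113 loci lower in s215. In the CRK list 13 of 18 windows (72.2%) held one, against 3 of 17 (17.6%) in the salicylic acid list, and the CRK windows share ancestry. A match describes letters in the window and is not a binding site shown by these data.

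Windows of WRKY53 and of 3 of the 4 CRKs with the highest ratios are shown because they hold the motif. Capitals mark the W-box letters. The windows lie at chr4:12393983-12394232 (minus strand) for WRKY53, chr3:16866262-16866511 (minus) for CRK4, chr4:12121119-12121368 (plus) for CRK6 and chr4:2238120-2238369 (plus) for CRK37. Each runs 5′ to 3′ on the gene's strand and ends at the base before the gene start.
WRKY53: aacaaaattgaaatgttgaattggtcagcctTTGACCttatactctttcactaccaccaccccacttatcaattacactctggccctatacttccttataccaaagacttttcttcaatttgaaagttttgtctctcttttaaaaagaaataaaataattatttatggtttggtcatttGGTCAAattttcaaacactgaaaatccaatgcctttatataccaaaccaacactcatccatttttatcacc
CRK4: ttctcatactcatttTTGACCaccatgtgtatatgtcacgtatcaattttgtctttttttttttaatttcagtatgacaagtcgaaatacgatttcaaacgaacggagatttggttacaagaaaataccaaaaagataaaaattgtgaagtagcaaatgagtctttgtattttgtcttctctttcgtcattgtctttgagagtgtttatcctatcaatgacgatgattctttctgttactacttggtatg
CRK6: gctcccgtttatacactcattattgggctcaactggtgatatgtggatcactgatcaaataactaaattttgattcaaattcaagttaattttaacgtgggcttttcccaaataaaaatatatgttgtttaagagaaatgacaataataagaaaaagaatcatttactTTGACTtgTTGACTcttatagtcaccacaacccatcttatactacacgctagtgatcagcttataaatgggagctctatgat
CRK37: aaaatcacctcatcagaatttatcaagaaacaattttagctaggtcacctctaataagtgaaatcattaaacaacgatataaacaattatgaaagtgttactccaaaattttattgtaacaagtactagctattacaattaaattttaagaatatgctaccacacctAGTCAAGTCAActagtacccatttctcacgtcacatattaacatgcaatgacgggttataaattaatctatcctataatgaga
The CRK6 matches begin 74 and 82 bases before the gene start and those of CRK37 78 and 83 bases before it, where a pair of motifs overlaps. In WRKY53 they begin at 71 and 219 bases and in CRK4 at 235 bases. CRK45, the fourth CRK, held none in its window.

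The other searched motifs follow. Site II (TGGGCC), known from growth and ribosomal protein genes, was in 17.1% of all windows, 11.4% of those of higher loci and 3.29% of those at least 16-fold higher. It was also less frequent in loci lower in s215 (13.6%) and in those at least 16-fold lower (5.49%). The telo-box AAACCCTA was in 3.54% of all windows, 2.42% of higher and 3.04% of lower loci, and in 1.32% and 1.22% of the sets at least 16-fold higher and lower. The ABRE core ACGTG, which lies inside the G-box CACGTG, was in 23.8%, 27.2% and 25.8%, and in 30.9% of the loci at least 16-fold higher and 31.1% of those at least 16-fold lower. The G-box was in 7.51%, 7.77% and 7.88%, and in 6.58% and 11.6% of these extreme sets. The I-box GATAAG was in 12.4%, 14.1% and 12.9%, and in 17.8% and 12.8% of the extreme sets. TATCCA was in 14.3%, 14.7% and 14.6%, and in 15.8% and 12.8%. The evening element AAAATATCT was in 2.48%, 3.21% and 2.38%, and in 0.658% and 1.22%.

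**Figure D3:**
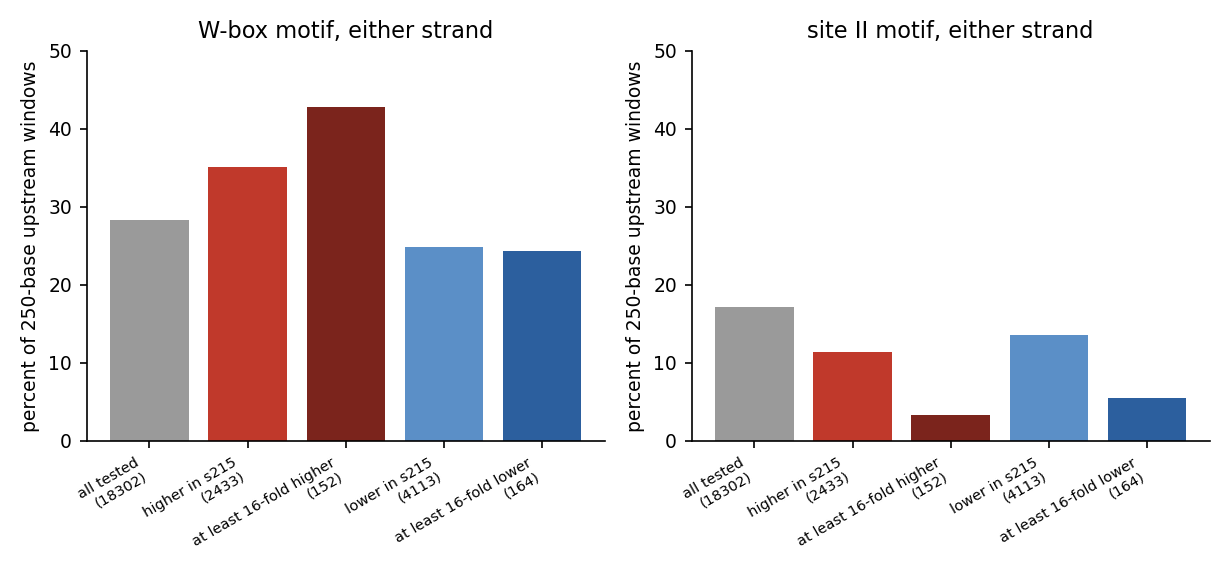
Percentage of 250-base windows upstream of gene starts with a W-box (left) or site II motif (right) on either strand, for all tested loci and for loci higher or lower in s215 than in atprmt5, with numbers of windows in parentheses. The W-box share is 28.3% over all loci and 42.8% in those at least 16-fold higher, and the site II share 17.1% and 3.29%.

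Leaf senescence is the ordered dismantling of the leaf, with chlorophyll breakdown and export of nitrogen. Of 22 tested genes 19 were higher in s215 and 1 lower (median log2 ratio 2.4), and 1 of the higher calls was fixed by the minimum. SAG12, a cysteine protease and the classical marker of senescence, was at 0 RPKM in wild type, atprmt5 and m90 and at 36.3 in s215, at least 283-fold above atprmt5. SAG13 was at 0.126, 0.449, 0.164 and 101 RPKM, 224-fold above atprmt5 (124 to 448). Neither was above 0.449 RPKM in any library but s215.

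The senescence regulators NAP, a NAC factor, and WRKY53 were high in s215 over a lower level in atprmt5 than in wild type. NAP was at 36.8 RPKM in wild type, 13.8 in atprmt5, 42.0 in m90 but 511 in s215, and WRKY53 at 17.2, 2.31, 44.4 and 164. SAG21, the most abundant listed member, was at 107, 95.5, 99.9 and 525. Of the chlorophyll breakdown genes, named after their values were seen, NYE1 was at 3.40 RPKM in atprmt5 and 25.9 in s215, NYC1 at 22.5 and 113, PPH at 25.4 and 99.7, and PAO at 14.6 and 37.7. ACD2, which acts after PAO in the same pathway, was the 1 lower member, at 84.3 and 27.7.

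Of 22 autophagy genes 6 were higher (27.3%, beside 13.3% of all loci) and 0 lower, beside 22.5% (median log2 ratio 0.67). NBR1, a receptor for cargo of autophagy, was at 39.4 RPKM in wild type, 48.4 in atprmt5, 32.8 in m90 but 170.2 in s215. Of 27 genes induced by darkness and sugar starvation 2 were higher (7.41%, beside 13.3%) and 6 lower (22.2%, beside 22.5%), so the lower share was that of all loci (median log2 ratio -0.24). The asparagine synthetase gene ASN1, a marker of darkness, was at 124 RPKM in atprmt5 and 23.3 in s215, whereas BCAT2, of branched-chain amino acid breakdown, was at 1.43 and 60.0.

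Nitrogen genes split. Of 18 tested, 4 were higher (22.2%, beside 13.3% of all loci) and 8 lower (44.4%, beside 22.5%), with a median log2 ratio of -0.92. Of the higher calls 1, that of NRT2.5, was fixed by the minimum. The plastid glutamine synthetase GLN2, which captures ammonium in green leaves, was at 1090.1 RPKM in wild type, 1154 in atprmt5, 1250.1 in m90 but 171 in s215. Of the 4 listed cytosolic forms 2 were higher: GLN1;1 was at 26.8, 36.1, 30.6 and 333, and GLN1;4 at 3.39, 6.47, 4.85 and 68.2. GLN1;2 (394 RPKM in atprmt5, 229 in s215) and GLN1;3 (86.3 and 126), named after their values were seen, lay within 2-fold. NRT2.5, a nitrate transporter of starved plants, was at 0.0317 RPKM in atprmt5 and 17.0 in s215, while the nitrite reductase NIR1 was at 177 and 32.0 and the asparagine synthetase ASN2 at 191 and 16.7.

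Photosynthesis genes were lower almost throughout. Of 43 light harvesting and photosystem genes 37 were lower and 0 higher (median -1.75), and of 22 Rubisco and Calvin cycle genes 17 were lower and 0 higher (median -1.72). The summed level of these 65 genes was 128754 RPKM in wild type, 131859.9 in atprmt5, 130461 in m90 but 51037 in s215. None was at 0 in any library. PSBS, the sensor of excess light, was at 769 RPKM in wild type, 1010.4 in atprmt5, 904 in m90 but 48.5 in s215, 20.9-fold below atprmt5 (19.7 to 22.1). RBCS2B, a small subunit of Rubisco, was at 992, 869.9, 778 and 46.8 RPKM, 18.6-fold below (17.3 to 20).

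Antenna genes were not all alike. LHCA1 was at 4365 RPKM in atprmt5 and 638 in s215, but LHCB1.3, chosen after its values were seen, was at 8913 and 10357, the highest value in s215. Its near copies LHCB1.1 (6283 and 1691) and LHCB1.2 (4646 and 1217) were lower, and assignment of reads among such copies, as among the RBCS genes, is uncertain. PSBR, the most abundant transcript of atprmt5, was at 14761 and 7535 RPKM, just short of 2-fold. CP12-1, a regulator of the Calvin cycle named after its values were seen, was at 938 and 1555.

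**Figure D4:**
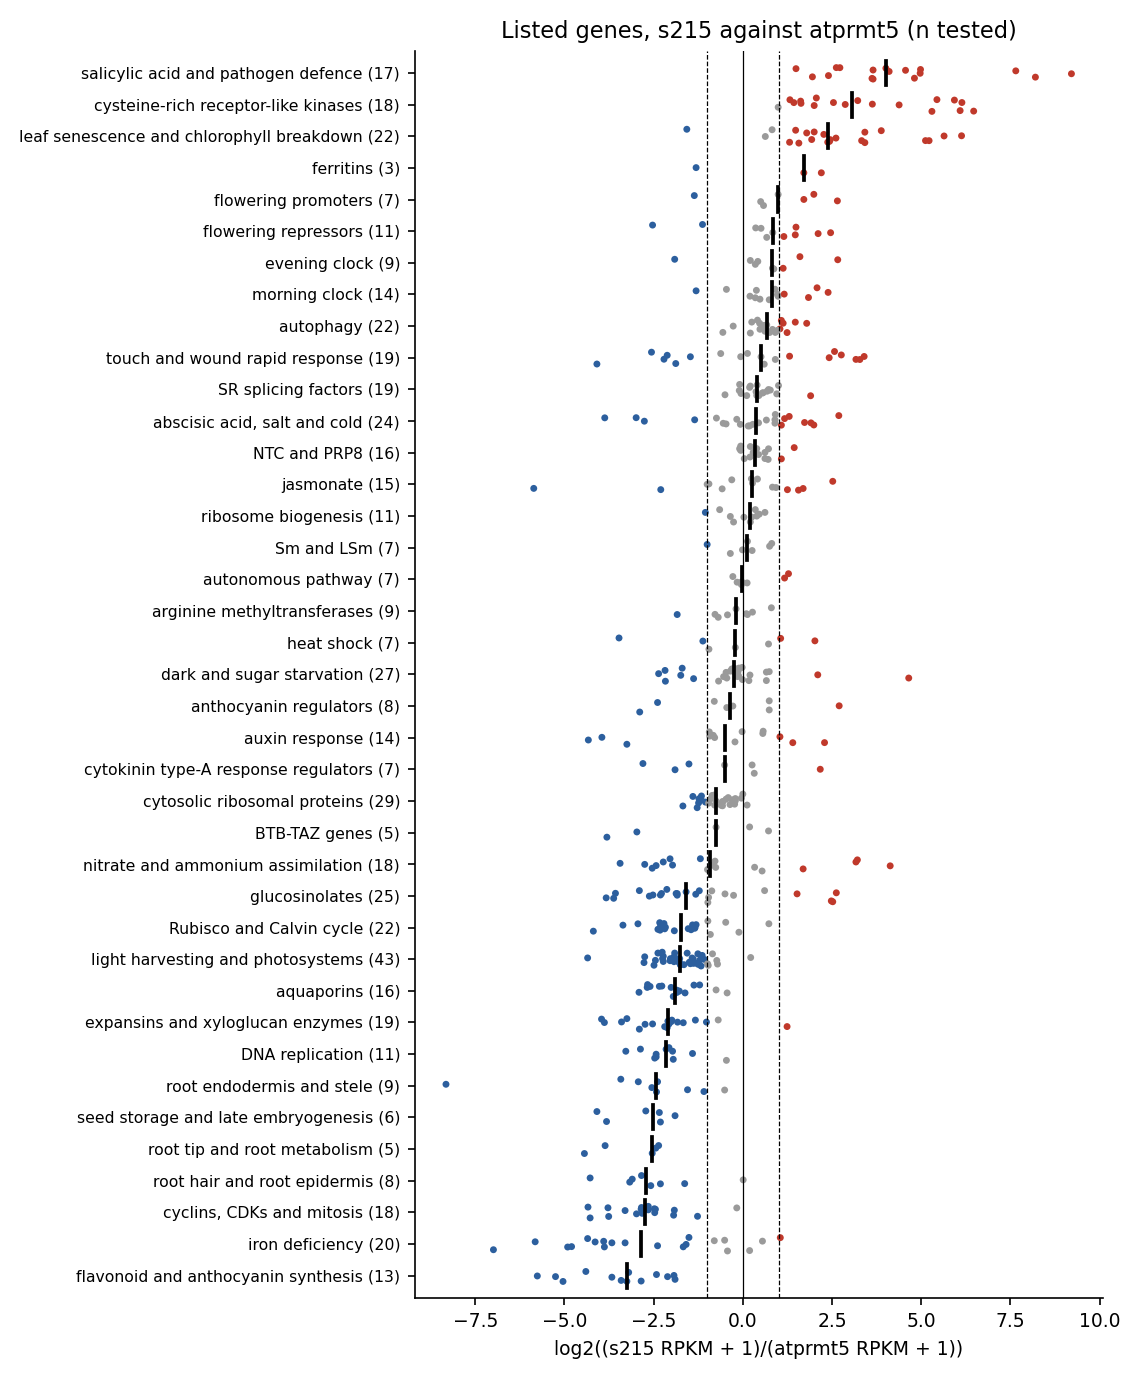
Log2 ratio of s215 to atprmt5, on the log2(RPKM + 1) scale, for tested members of the 39 gene lists (points; red at least 2-fold higher, blue at least 2-fold lower), with the list median as a bar and the number tested in parentheses. Medians run from 4.01 for salicylic acid defence to -3.25 for flavonoid synthesis, beside -0.09 over all tested loci.

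Of the 5 lowest ratios 4 belonged to the PYK10 system of the ER body, an endoplasmic reticulum compartment of Brassicaceae that stores a defence glucosidase. PYK10 (AT3G09260, chromosome 3, 2840477 to 2843781, minus strand), that glucosidase and abundant in roots, was at 1553 RPKM in wild type, 1484 in atprmt5, 1367 in m90 but 3.65 in s215. This is 407-fold below atprmt5 (337 to 491). The jacalin lectin JAL33 was at 371, 473, 381 and 0.674 RPKM, JAL22 at 219, 229, 132 and 0.606, and NAI2, needed to form the ER body, at 294, 328, 206 and 1.5. All 4 were abundant in wild type, atprmt5 and m90 and close to 0 in s215.

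The other genes among the 15 lowest included MLP34 (184 RPKM in atprmt5, 0.667 in s215), the cutinase gene CDEF1 (71.8 and 0.124), the metallothionein gene MT1C (120 and 0.881) and CYP81F4, of indole glucosinolate modification (126 and 1.0). The lipid transfer family loci AT4G33550 (296 and 2.43) and AT2G37870 (92.4 and 0.603) and the papain-type protease locus AT4G11320 (210 and 1.09) were also among them. AT1G47395 was at 126 RPKM in atprmt5 and 0 in s215, at least 609-fold lower. AT2G33850 (216 and 0.524), AT1G13650 (119 and 0.620) and the lectin locus AT1G52100 (60.2 and 0.0304) completed the 15. PYK10 and others of these genes are known from roots. The root marker sum was 1728 RPKM in atprmt5 and 33.3 in s215, and the part of root tissue in these differences was not tested.

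Flavonoid and anthocyanin genes make the red and sunscreen pigments from phenylalanine products. All 13 were lower in s215 and 0 higher, with the lowest list median, -3.25, and 3 of these calls were fixed by the minimum. CHS, the entry enzyme, was at 50.6 RPKM in wild type, 198 in atprmt5, 92.3 in m90 but 5.06 in s215, 39.2-fold below atprmt5 (33.2 to 46.2). DFR (AT5G42800, chromosome 5, 17164093 to 17166032, minus strand), which commits the flow to anthocyanins, was at 2.53, 82.3, 14.9 and 1.18 RPKM, 69.5-fold below (49.3 to 103). LDOX, the next enzyme, was at 5.14, 70.8, 18.0 and 0.320. For these 3 genes atprmt5 was the highest library and s215 the lowest, below wild type. Of 8 tested regulators 1 was higher and 2 lower (median log2 ratio -0.37): the bHLH genes EGL3 (6.4 RPKM in atprmt5, 0 in s215) and TT8 (6.4 and 0.408) were lower, and the MYB gene PAP2 (0 and 5.51) was higher. The calls of EGL3 and PAP2 were fixed by the minimum. Of the other 6 regulators 1 (16.7%) was lower and 0 higher, beside 18.8% and 12.8% of all loci not fixed by the minimum. The lower share was thus near that of all loci, and no direction is read from the regulators.

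Iron deficiency genes are switched on in roots when iron is short. Of 20 tested 11 were fixed as lower by the minimum. Of the other 9, 3 (33.3%) were lower and 1 (11.1%) higher, beside 18.8% and 12.8% of all loci not fixed by the minimum. BHLH38, a regulator of uptake, was at 12.6 RPKM in wild type, 32.9 in atprmt5, 3.20 in m90 but 0.126 in s215, and the nicotianamine synthase NAS1 was at 58.5, 78.1, 53.7 and 1.85. FRU, the uptake regulator also called FIT, was the 1 higher member, at 1.09 RPKM in atprmt5 and 3.33 in s215, although its target IRT1, the iron transporter, was at 12.2 and 0.0388. IRT1 was named after its values were seen, and the lower calls of BHLH38 and IRT1 were fixed by the minimum. Of the ferritin genes, which store iron in plastids, FER1 (28.4 and 134) and FER4 (4.88 and 18.3) were higher and FER3 (10.6 and 3.68) lower. The root marker sums given above moved with the iron list, and their part in it was not tested.

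RNA of cell division genes was scarce in s215. Of 18 tested cyclin, CDK and mitosis genes 9 were fixed as lower by the minimum, and of the other 9, 8 were lower and 0 higher. Of 11 DNA replication genes 10 were lower and 0 higher (median -2.15). KNOLLE, a syntaxin of the cell plate, was at 155 RPKM in wild type, 217 in atprmt5, 242 in m90 but 9.78 in s215, 22.2-fold below atprmt5 (19.5 to 25.4). The B-type cyclin CYCB1;2 was at 9.91, 16.2, 21.3 and 0.274, and the replication clamp PCNA1 at 16.2, 29.8, 35.6 and 3.20. CDKA;1, a kinase also present outside division and named after its values were seen, was within 2-fold, at 19.6 RPKM in atprmt5 and 17.3 in s215. PLT1, PLT2 and WOX5 of the root tip were at 0 in the same library, but they were under the minimum and low in atprmt5 too.

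Cell wall loosening and water transport genes followed the same direction. Of 19 expansins and xyloglucan enzymes 17 were lower and 1 higher (median -2.10), and of 16 aquaporins 14 were lower and 0 higher (median -1.90). The minimum fixed 2 of the 17 lower calls and 1 of the 14. XTH31 was at 64.4 RPKM in atprmt5 and 3.21 in s215, EXPA15 at 18.7 and 0.339, and XTH24, the higher member, at 23.5 and 57.1. The plasma membrane aquaporin PIP1;3 was at 289 and 37.8 RPKM and the vacuolar TIP1;2 at 375 and 92.3. Many of these genes are also expressed in roots, and the part of the root markers was not tested.

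Ribosomal protein genes differed less. Of 29 cytosolic members 8 (27.6%, beside 22.5% of all loci) were lower and 0 higher (median log2 ratio -0.75), and of 11 ribosome biogenesis genes 1 was lower and 0 higher (median log2 ratio 0.21). RPS6A was at 181 RPKM in wild type, 246 in atprmt5, 346 in m90 but 76.1 in s215, while the nucleolin gene NUC1 was at 140.2, 181, 175 and 237. In the seed storage list all 6 tested members were fixed as lower by the minimum, so their count shows nothing. CRA1, a cruciferin, was at 67.8, 19.2, 0.157 and 0.193 RPKM, so m90 was near 0 as well as s215.

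Glucosinolates are defence compounds of Brassicaceae. Of 25 genes 15 were lower (60.0%, beside 22.5% of all loci) and 4 higher (16.0%, beside 13.3%), with a median log2 ratio of -1.59. The higher share was thus near that of all loci. MYB29, a regulator of the aliphatic branch, was at 55.9 RPKM in atprmt5 and 3.64 in s215, and CYP79F1, an enzyme of it, at 197 and 25.5. The higher members were CYP83B1 (42.8 and 125), CYP81F2 (1.51 and 13.4) and MYB51 (5.74 and 40.5), of the indole branch, and ESM1 (136 and 761), of glucosinolate breakdown. MYB34, another regulator of the indole branch, was lower, at 26.6 and 0.937. So was CYP81F4 of indole glucosinolate modification, outside this list, at 126 and 1.0.

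Hormone and heat lists were mixed. Of 15 jasmonate genes 4 were higher and 2 lower (median 0.27): the storage protein gene VSP2 was at 161 RPKM in atprmt5 and 1.79 in s215, and the defensin PDF1.2 at 0 and 4.72. The abscisic acid, salt and cold list had 7 higher and 4 lower of 24 (median 0.36), with ABI5 at 2.87 and 23.9 RPKM and RD29B at 29.0 and 1.05. Of 14 auxin genes 3 were higher and 3 lower (median -0.50), with IAA29 at 4.75 and 27.1 and IAA17 at 77.3 and 2.91. Of 7 type-A response regulators of cytokinin 1 was higher and 3 lower (median -0.51), with ARR16 at 2.38 and 14.2 and ARR9 at 36.0 and 4.31. Of 7 heat shock genes 2 were higher and 2 lower (median -0.21), with HSFA7A at 4.84 and 22.7 and HSP18.2 at 14.6 and 0.410. Shares called higher in these 5 lists ran from 14.3% to 29.2%, beside 13.3% of all loci, and shares called lower from 13.3% to 42.9%, beside 22.5%. Of the jasmonate calls 1 higher and 1 lower were fixed by the minimum. No direction is read from these lists.

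FLC (AT5G10140, chromosome 5, 3173382 to 3179448, minus strand), the main repressor of flowering before winter, was at 1.66 RPKM in wild type, 3.28 in atprmt5, 0.467 in m90 but 22.6 in s215. It was 6.88-fold above atprmt5 (5.27 to 9.19). Its relative MAF5 (5.15 RPKM in atprmt5, 25.6 in s215) and TEM1, another repressor (76.2 and 214), were higher too, while SMZ (6.62 and 0.323) and SNZ (21.5 and 9.30) were lower. In all, 5 of 11 repressors were higher (45.5%, beside 13.3% of all loci) and 2 lower (median 0.84). The lower call of SMZ was fixed by the minimum. Of 7 promoters of flowering 3 were higher (42.9%, beside 13.3%) and 1 lower (median 0.99): SPL3 was at 60.1 RPKM in wild type, 18.8 in atprmt5, 14.6 in m90 but 77.8 in s215, and FUL at 1.33, 1.07, 1.85 and 12.0. Repressors and promoters of flowering were thus both represented among the higher genes. FCA (4.11 and 10.5) and FPA (6.4 and 17.0), RNA-binding proteins that act to lower FLC, were the 2 higher members of 7 autonomous pathway genes (28.6%), with 0 lower.

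Of 14 morning clock genes 4 were higher (28.6%, beside 13.3% of all loci) and 1 lower (median 0.82), and of 9 evening genes 3 were higher (33.3%) and 1 lower (median 0.83). LHY was at 6.07 RPKM in wild type, 27.5 in atprmt5, 24.9 in m90 but 148 in s215, and CCA1 at 145, 130.3, 148 and 469. PRR3, an evening gene, was at 0.923 RPKM in atprmt5 and 11.1 in s215, and LUX, of the evening complex, was lower, at 17.6 and 3.97. Genes of both phases were thus higher in the same library.

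Genes of the splicing machinery, which the series is about, passed 2-fold in smaller shares than the 35.7% of all loci called in either direction. Of 16 tested NTC and PRP8 genes 2 were higher and 0 lower (median log2 ratio 0.35). CDC5, a core member of the complex, was at 186 RPKM in wild type, 165 in atprmt5, 129 in m90 but 352 in s215, 2.13-fold above atprmt5 (2.08 to 2.18). SKIP, which joins at activation of the spliceosome, was at 84.6, 82.5, 70.3 and 225, 2.73-fold above (2.62 to 2.83). MAC3A, an E3 ligase of the complex named after its values were seen, was at 18.5 and 24.7 RPKM in atprmt5 and s215. Of 19 SR splicing factors 1 was higher (5.26%) and 0 lower (median 0.40), RS40 at 73.1 and 275. Of 7 Sm and LSm genes 0 were higher and 1 lower (14.3%, median 0.13), AT4G02840 at 12.8 and 5.88. These counts lie beside 13.3% higher and 22.5% lower over all loci. The NTC share of 12.5% higher was near that of all loci. Under a centring on the median of all loci the direction of these list medians was the same.

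The last question was whether the genes that set atprmt5 apart were reversed in s215. Genes high in atprmt5 were lower in s215 in more than the share of all loci. Genes low in atprmt5 were split between higher and lower in s215. Of 340 loci at least 2-fold higher in atprmt5 than in wild type, 337 were tested. In s215, 176 of these (52.2%, beside 22.5% of all tested loci) were lower and 54 (16.0%, beside 13.3%) were higher. The median log2 ratio over the 337 was -1.12. Of 635 loci at least 2-fold lower in atprmt5, 518 were tested, of which 144 (27.8%, beside 13.3%) were higher and 130 (25.1%, beside 22.5%) lower. Their median was 0.05. The 117 not tested were under the minimum, so they were low in s215 as in atprmt5. Counted with them, 144 loci were higher and 156 lower. Both comparisons use the same atprmt5 library, so counting error in it adds to the counts of reversed loci. Calls fixed by the minimum were not counted apart in these sets.

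Where a reversed locus ended differed. Of the 176 high loci that were lower in s215, 92 lay within 2-fold of wild type, 83 were at least 2-fold below wild type and 1 was still at least 2-fold above it. The 340 high loci had median levels of 3.14 RPKM in wild type, 9.23 in atprmt5, 4.74 in m90 but 3.22 in s215. Of the 144 low loci that were higher in s215, 85 lay within 2-fold of wild type, 55 at least 2-fold above it and 4 short of it. Of all 635 low loci, 412 were at least 2-fold below wild type in s215, 168 within 2-fold of it and 55 at least 2-fold above it. The 635 had medians of 14.4, 4.26, 14.1 and 4.52 RPKM. The s215 median lay near that of atprmt5 and the m90 median near that of wild type. The 635 were picked for values low in atprmt5 and high in wild type. Counting error in the wild type library thus favours s215 lying below it, and the reverse holds for the 340. The share of all loci below wild type in s215 was not worked out, so no conclusion is drawn from these counts against wild type.

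**Figure D5:**
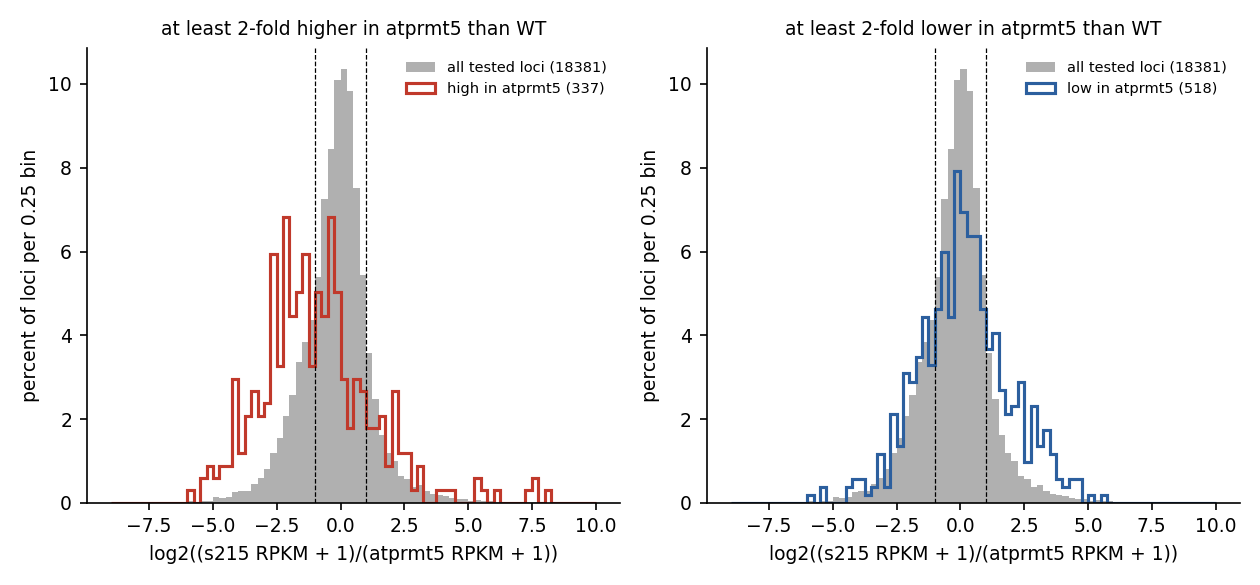
Distribution of the log2 ratio of s215 to atprmt5, as the percentage of loci in each bin of 0.25, for loci high in atprmt5 (left, red) and low in atprmt5 (right, blue) against wild type, over all tested loci (grey). Dashed lines mark 2-fold. The high loci centre at -1.12 and the low loci at 0.05, beside -0.09 for all.

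The 8 genes highest in atprmt5 against wild type were all lower in s215. Beside DFR and LDOX they were NUDT24, a nudix hydrolase (3.96 RPKM in wild type, 53.1 in atprmt5, 6.35 in m90, 0.315 in s215), GSTF12, needed for anthocyanin transport (9.21, 98.5, 28.5 and 6.84), and the flavonoid glucosyltransferase UF3GT (0.503, 12.4, 4.03 and 0.262). The others were the cytochrome P450 locus AT3G44970 (26.5 in atprmt5, 0.0132 in s215), AT2G16586 and the ribosomal RNA locus AT2G01010, whose near-identical copies make its value uncertain. These 8 were picked for high values in the atprmt5 library, which favours a lower ratio of s215 to atprmt5. The calls of LDOX, NUDT24, UF3GT and AT3G44970, at or below 0.333 RPKM in s215, were fixed by the minimum. No conclusion is drawn from the count of the 8. At the opposite end of the high set were defence genes that stood higher in s215 than in atprmt5, among them PR1, PR5, LURP1 and ACD6, a defence regulator at 3.01, 10.5, 5.11 and 575 RPKM that was chosen after its values were seen.

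The 8 genes lowest in atprmt5 against wild type split. WRKY40, a stress regulator, was at 172 RPKM in wild type, 7.58 in atprmt5, 469 in m90 but 57.3 in s215, and the calmodulin-like gene CML37 at 35.0, 1.34, 180.3 and 23.8. AT3G02840, with ARM repeats, was also higher in s215. RRTF1, a redox-responsive ERF factor, was lower still, at 109.7, 5.16, 359 and 0.329 RPKM, as were ORA47, a regulator of jasmonate synthesis (40.6, 3.16, 84.2 and 0.501), BT1, a BTB and TAZ domain protein (154, 13.2, 47.0 and 0.819), and AT2G05510. PROPEP3, an elicitor peptide precursor, was at 8.89 RPKM in wild type, 0 in atprmt5, 8.95 in m90 but 0.829 in s215, under the minimum. The lower call of RRTF1 was fixed by the minimum. Genes of rapid touch and wound responses as a list gave 7 higher (36.8%, beside 13.3% of all loci) and 6 lower (31.6%, beside 22.5%) of 19 (median 0.51). Of these list calls 1 higher and 2 lower were fixed by the minimum. WRKY33, a regulator of camalexin synthesis, was higher (28.5 and 265 RPKM in atprmt5 and s215), and the xyloglucan enzyme TCH4 (119.6 and 6.10) and the calmodulin-like TCH2 (178 and 29.3) were lower. Of 5 BTB and TAZ domain genes 2 were lower (40.0%, beside 22.5% of all loci) and 0 higher (median -0.75), BT1 and BT2, the latter at 19.1 and 0.440 RPKM.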

How the data were processed

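The submitters' processing notes list TopHat2 2.0.11 (a spliced-read aligner) and TAIR10 as the build. Which program counted reads, and how it treated strand and multiply matching reads, is not given in the sources used here. The authors deposited RPKM values in 1 table of 24288 loci by 4 libraries, of 1 seedling sample per genotype. Each column was matched to its genotype by name.

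A difference is log2((RPKM + 1)/(RPKM + 1)), a scale that understates changes of low values, and was called at 2-fold. Reads behind a value were approximated from the RPKM of 1 read and the longest annotated exon length (RefSeq TAIR10.1). Only 15.6% of atprmt5 values and 15.0% of s215 values under 100 reads came out whole within 0.01, so reads and the exact 95% intervals (Clopper-Pearson) are approximate, and they cover counting error alone. Folds against 0 are lower bounds at 3 reads in that library.

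The members and the 39 gene lists (635 loci, of which 633 are in the table; CRB and ARR17 were not analysed here) were chosen with earlier results of these data known. Gene names came from RefSeq, with 24183 loci matched. The named genes were PRMT5, the 15 highest and 15 lowest ratios, up to 4 per direction and the most abundant member in each list, and the 8 extremes of atprmt5 against wild type in each direction. Promoter windows of 250 bases were cut from the genome, since no promoter table was at hand. Scripts used Python 3.11.15, numpy 2.4.6, pandas 2.3.3 and scipy 1.17.1, and were tested on simulated data. Alternatives were other pseudocounts, minima and scalings.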

Additional observations from a re-analysis of the deposited data

How the results depend on the processing

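Under 8 alternatives no list median past 2-fold changed direction, and 173 of 205 named genes past 2-fold stayed past it in each. All 205 kept their sign. A changed pseudocount or minimum cannot turn the sign of a ratio, and the rescalings were small, so nothing is concluded from this. Across settings, 588 ratios of named genes moved by more than their counting interval allows or had no interval, and 1161 did not. By a like measure 72 list medians moved and 240 did not. Rescaling to equal summed RPKM, or by a trimmed mean of ratios, moved the median of all loci from -0.09 to 0.05. It gave 2955 or 2961 higher loci and 3710 lower loci. The lists of anthocyanin regulators (-0.44 to 0.74), heat shock (-0.28 to 0.72) and the autonomous pathway (-0.03 to 0.11) had medians on both sides of 0. A pseudocount of 5 gave 1602 higher and 2198 lower loci. A minimum mean of 5 RPKM gave 2002 higher (15.2%) and 2444 lower loci (18.5%). The excess of lower loci was largest at low levels. At a mean of 1 to 5 RPKM 8.48% were higher and 32.4% lower, and at 5 to 20 RPKM 12.6% and 18.9%. At 20 to 100 RPKM the shares were 17.0% and 16.3%, and at 100 RPKM or more 23.5% and 25.9%. For loci high in atprmt5 and lower in s215, in place of 176, a pseudocount of 0.1 gave 303, a pseudocount of 5 gave 44, a minimum of 5 RPKM gave 92, and a floor of 0.5 RPKM gave 334. As a share of the set this stayed between 49.4% and 54.8%. For loci low in atprmt5 and higher in s215, in place of 144, the pseudocounts of 0.1 and 5 gave 244 and 58 and the floor 263, with shares between 21.7% and 34.8%. More of the low loci were higher in s215 than lower still in each setting (between 58 against 50 and 263 against 202) except with no minimum, where 148 were higher and 156 lower. Counts move here because the sets themselves grow or shrink with the setting. No paired analysis was possible because each genotype has 1 library. For the same reason no replicate could be left out, and a difference between genotypes cannot be told apart from one between these plants. Low levels limit single genes: at 0 RPKM a fold is only a bound.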

Other observations

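Several gene families, found by their product names after the values had been seen, add to the lists. Their counts stand beside 13.3% higher and 22.5% lower over all loci. Calls fixed by the minimum were not counted apart in these families or in the shares of all loci beside them, so no conclusion is drawn from the family counts. Such calls include AT5G45000, RLP38, RLP41, WRKY50, WRKY58 and NAC090 among the higher genes. Among the lower genes they include WRKY9, WRKY14, WRKY49, NAC038, JAL31, AT4G30170, AT5G01870 and AT1G52100. Of 60 intracellular immune receptors of the TIR-NBS-LRR type 30 were higher in s215 than in atprmt5 and 1 was lower (median log2 ratio 0.99). Of 35 NB-ARC and CC-NBS-LRR genes 13 (37.1%) were higher and 0 lower (0.83). Of 37 receptor-like proteins of the cell surface 24 (64.9%) were higher and 2 lower (2.03). Among transcription factors, 24 of 46 WRKY genes (52.2%) were higher and 9 lower (1.39), and 18 of 48 NAC genes (37.5%) were higher and 8 lower (0.73). Many of these families hold tandem copies of alike sequence, so single values are uncertain.

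Other families had larger lower shares. Of 42 genes whose product is named peroxidase family 3 were higher and 33 (78.6%) lower (median -2.63), DOX1, an alpha-dioxygenase, among them. Of 44 lipid transfer and inhibitor genes 4 were higher and 33 (75.0%) lower (-2.10), and of 19 jacalin and mannose-binding lectins 0 were higher and 15 (78.9%) lower (-2.04). Many peroxidases are known from roots, and the part of the root markers in this count was not tested. Kinesins, motors of mitosis and growth, had 1 of 39 higher and 26 (66.7%) lower (-1.49). Cytochromes P450 were divided, with 31 of 132 (23.5%) higher and 57 (43.2%) lower. Ubiquitin-specific proteases had 0 of 24 past 2-fold, and pentatricopeptide repeat genes, which process organelle RNA, had 4 of 200 higher and 9 lower.

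Loci with fewer exons were called more often. Of 2827 loci with 1 exon 16.7% were higher and 28.7% lower, and of 7633 with 6 or more exons 11.1% were higher and 17.3% lower, with medians of -0.23 and 0.01. The 5 chromosomes were alike, with 12.5% to 14.0% higher and 21.8% to 23.6% lower.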
